A study of Homo sapiens with 4 samples.

Results

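The glycolysis and hypoxia-response genes are 39 genes chosen by symbol, which cover the enzymes and transporters that turn glucose into lactate, the oxygen-sensing hypoxia-inducible factor (HIF) and its hydroxylases, and genes that HIF is known to induce. All 39 were found among the 25559 gene symbols of the count tables. They were compared between HGC-27 control cells (genotype wildtype, 2 libraries) and HGC-27 RUNX3 KO cells (genotype RUNX3KO, 2 libraries) by polyA RNA-seq. HGC-27 cells come from a human gastric carcinoma, and the knockout was made with Cas9 and a guide to the third exon of RUNX3, followed by puromycin selection and single-cell cloning. All cells were cultured at 37C and 5% CO2 with 10% fetal bovine serum, no low-oxygen sample was used here, and the comparison asks which of these genes differ in level when RUNX3 is disrupted. Neither the number of clones nor whether replicates were separate cultures is stated, so the p-values measure the spread between these libraries, which may be technical.

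Glycolysis takes up glucose through GLUT transporters, traps it with hexokinase, splits it and yields pyruvate, which is either exported as lactate or burned in mitochondria. Most steps are shared among paralogs (HK1 and HK2, PFKL, PFKM and PFKP, LDHA and LDHB) that differ in regulation and tissue. In oxygenated cells the prolyl hydroxylases EGLN1 and EGLN3 mark the HIF alpha subunits for destruction through VHL. When oxygen falls, HIF accumulates and induces many glycolytic genes together with EGLN3, CA9, VEGFA, ADM, BNIP3 and others, so tumour cells often use these genes as a common programme.

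Reads on genes ranged from 11731401 to 12110876 per library, and reads without a gene took 25.9% to 28.1% of all counts, less in RUNX3 KO than in control libraries. RUNX3 itself had 351 and 308 counts in control and 225 and 185 in RUNX3 KO libraries, a log2 fold change of -0.70 (SE 0.0961). Loss of the protein cannot be read from mRNA of an edited gene. The 2 libraries of a group differed little from each other (chi-square per degree of freedom 1.22 in control and 1.18 in RUNX3 KO, over 13692 and 13510 genes), and the groups differed by 16.9 to 17.4. Of 15 gastric epithelial markers, EPCAM had 1, 1, 0 and 0 counts and KRT19, KRT20, TFF1, TFF2, MUC5AC, GKN1 and CLDN18 had none. Of those with reads, MUC1 had 87, 100, 86 and 85 counts and was not called, and KRT8 (19 and 11 against 72 and 81) and CDH1 (15 and 21 against 30 and 32) were higher in RUNX3 KO. KRT18 had 0 and 0 against 2 and 14 counts, KRT7 had 3 and 2 against 1 and 0, and CLDN4 and MUC6 had at most 5. The sum of the 15 was 10.8 and 11.8 CPM (counts scaled to a library of 1e+06 reads) in control and 16.6 and 17.9 in RUNX3 KO libraries. Of the mesenchymal markers, VIM, COL3A1 and COL1A1 were abundant and CDH2 had 0, 1, 1 and 3 counts. The summed level of the 8 was 8496 and 8349 CPM in control and 5210 and 5306 in RUNX3 KO libraries, and all 7 that were tested were lower. The endothelial markers PECAM1, CDH5 and KDR and the blood markers CD3E and HBB had no count in any library.

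Of the 39 genes, 35 had enough counts to be tested, and their levels moved both ways. In RUNX3 KO cells 9 were higher and 15 were lower at an adjusted p under 0.05 (quasi-likelihood test of edgeR, Benjamini-Hochberg over all genes tested), and 11 were not called. Across all 12967 tested genes 48.9% were called, 24.5% as higher and 24.4% as lower, so a call alone says little in these libraries. None of the 35 passed the criteria of at least a 2-fold change with an unadjusted p of at most 0.05, which 6.12% of all tested genes passed, 2.11% as higher and 4.01% as lower. HK1 missed them narrowly, at 1.997-fold, and its log2 fold change passed -1 with upper-quartile scaling (-1.02), library size alone (-1.02), the filter of 10 counts in every library (-1.0046), and without control replicate 1 (-1.10) or RUNX3 KO replicate 2 (-1.02). The changes were small, and in bulk libraries fewer cells with a transcript and less of it per cell cannot be told apart. The lowest log2 fold change was that of HK1, -0.998, and the highest was that of TPI1, 0.37, with a median of -0.05 against 0.00 for all tested genes. The median size without sign was 0.21, against 0.19 for all tested genes. The groups did not overlap for 28 of the 35, against 72.7% of all tested genes.

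More of the calls fell on genes of glucose metabolism than on genes of the hypoxia response, a difference that was not tested. Of 24 transporters, enzymes and regulators of glycolysis, 23 were tested, 8 were higher and 11 lower, which is 82.6% called against the background of 48.9%. Of 15 genes of the HIF pathway and its targets, 12 were tested, 1 was higher and 4 were lower, which is 41.7% called. Of the 24 calls, 3 had a log2 fold change under 0.10 in size and 5 had one of at least 0.50. The 3 smallest were of glycolytic genes, ALDOA, LDHA and PGAM1. Depth sets how small a change can be called, and the glycolytic genes had far more reads. In control libraries they summed to 20162 and 20278 CPM, against 663 and 650 for the hypoxia genes. The part of depth in this difference was not tested.

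**Figure D1:**
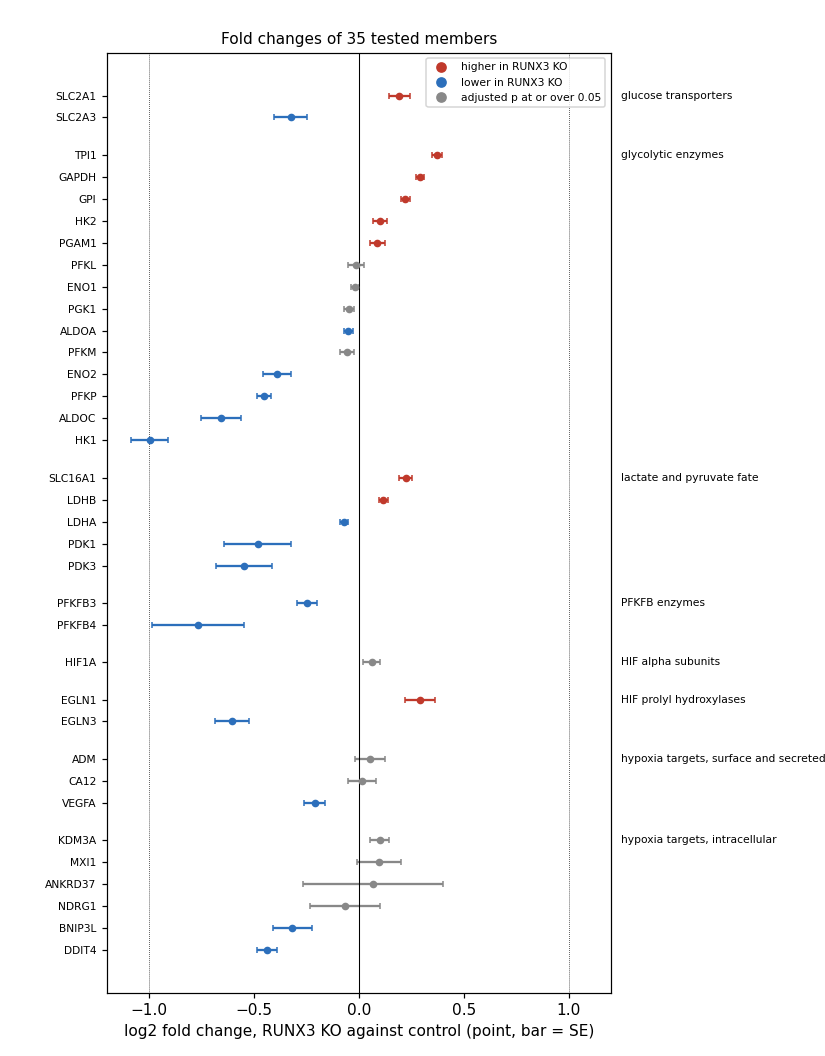
Log2 fold change of RUNX3 KO against control for the 35 tested genes, grouped by role (points, estimate; bars, SE; colour, direction of the call). Most points lie between -0.50 and 0.37, HK1 stands farthest to the left at -0.998, and paralogs such as EGLN1 and EGLN3 lie on opposite sides of 0.

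The calls differed in how often they were kept under other settings. In 13 alternative settings of scaling, filter, test, replicate block and left-out libraries, 9 of the 24 calls were kept in every one: those of HK1, ALDOC, PFKP, EGLN3 and DDIT4 as lower, and of GAPDH, TPI1, GPI and SLC16A1 as higher. The other 15 were lost in at least 1 setting. All 15 were lost without RUNX3 KO replicate 2, when that group is left with 1 library, and 12 of them also without RUNX3 KO replicate 1. Their directions were the same in each of the 13 settings. A call lost without a RUNX3 KO library does not show that its estimate rested on that library. Without RUNX3 KO replicate 1 or 2, EGLN1 stayed at 0.28 and 0.31 and PDK3 at -0.55 and -0.54. In the same 2 fits PFKFB4 went to -0.47 and -1.15.

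To show what the promoters of such genes look like, 5 are printed here, each of a gene with 1 start in the RefSeq table (build GRCh38.p14; 250 bases before to 50 after the start, 5′ to 3′ on the gene's strand). Capitals mark the core letters of the hypoxia response element, ACGTG or GCGTG on either strand, and CACGTG counts as 2 overlapping matches because it reads as ACGTG on both strands. ALDOC and PFKFB4 are lowered enzymes, EGLN3 and EGLN1 are the hydroxylases that moved oppositely, and BNIP3 is a well-known HIF target that had no count.
ALDOC, chr17:28576846-28577145, minus strand: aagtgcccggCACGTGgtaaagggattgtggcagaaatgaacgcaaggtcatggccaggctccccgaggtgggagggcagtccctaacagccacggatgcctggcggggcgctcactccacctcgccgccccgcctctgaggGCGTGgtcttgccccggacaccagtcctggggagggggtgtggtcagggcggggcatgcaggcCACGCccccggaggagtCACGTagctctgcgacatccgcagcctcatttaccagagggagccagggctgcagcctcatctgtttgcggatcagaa
PFKFB4, chr3:48556754-48557053, minus strand: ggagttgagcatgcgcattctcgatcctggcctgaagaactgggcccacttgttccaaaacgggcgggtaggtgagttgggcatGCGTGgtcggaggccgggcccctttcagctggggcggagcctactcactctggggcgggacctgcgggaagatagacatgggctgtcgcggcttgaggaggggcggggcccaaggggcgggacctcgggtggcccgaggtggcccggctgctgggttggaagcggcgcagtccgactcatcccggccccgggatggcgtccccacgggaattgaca
EGLN3, chr14:33951025-33951324, minus strand: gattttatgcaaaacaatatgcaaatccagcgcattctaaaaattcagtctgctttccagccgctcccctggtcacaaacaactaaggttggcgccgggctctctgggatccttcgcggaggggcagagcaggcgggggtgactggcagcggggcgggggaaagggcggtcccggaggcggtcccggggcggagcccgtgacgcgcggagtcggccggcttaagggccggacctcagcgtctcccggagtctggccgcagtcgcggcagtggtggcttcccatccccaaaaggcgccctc
EGLN1, chr1:231422238-231422537, minus strand: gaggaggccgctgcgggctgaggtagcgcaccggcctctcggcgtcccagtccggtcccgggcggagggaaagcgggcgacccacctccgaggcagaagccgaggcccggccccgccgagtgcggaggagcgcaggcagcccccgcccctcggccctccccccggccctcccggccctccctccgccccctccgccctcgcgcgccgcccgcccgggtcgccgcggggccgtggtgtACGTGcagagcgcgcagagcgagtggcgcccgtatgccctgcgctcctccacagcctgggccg
BNIP3, chr10:131981874-131982173, minus strand: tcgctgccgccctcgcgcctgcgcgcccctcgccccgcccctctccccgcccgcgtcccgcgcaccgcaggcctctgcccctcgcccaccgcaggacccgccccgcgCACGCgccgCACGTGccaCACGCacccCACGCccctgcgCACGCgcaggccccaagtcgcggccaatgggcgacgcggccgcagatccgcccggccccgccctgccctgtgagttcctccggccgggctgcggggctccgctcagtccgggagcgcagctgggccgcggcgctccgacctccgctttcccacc

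The ALDOC window held 5 matches and the BNIP3 window 6, the windows of PFKFB4 and EGLN1 held 1 each, and that of EGLN3 held none. Over all genes here, 34 of the 39 had at least 1 promoter in the table and 44 of their 64 promoters (68.8%) held a core, against 48.4% of all 35116 promoters. The words TGTGGT and TGCGGT on either strand, which RUNX proteins are known to bind, occurred in 15 of the 64 promoters (23.4%), against 19.6% of all. A match in these letters is a description of sequence and not a site bound in these cells.

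Uptake of glucose was split between transporters that moved oppositely. SLC2A1 encodes GLUT1, the widespread basal glucose transporter. It had 911 and 876 counts in control and 1027 and 1033 in RUNX3 KO libraries, and the groups did not overlap. Its level was 75.7 ± 2.07 CPM (SD, n = 2) in control and 86.5 ± 0.77 in RUNX3 KO cells, which is 0.19 higher on the log2 scale (SE 0.0499, edgeR adjusted p = 0.000767). SLC2A3, which encodes the high-affinity transporter GLUT3, had 414 and 413 counts in control and 354 and 312 in RUNX3 KO libraries. This was a log2 fold change of -0.33 (SE 0.0796, edgeR adjusted p = 0.000349), also without overlap. Without RUNX3 KO replicate 2 the log2 fold changes were 0.20 and -0.22 and neither was called. SLC2A1 was also not called without RUNX3 KO replicate 1 (0.19) or by DESeq2 (adjusted p = 0.059).

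Hexokinase commits glucose to metabolism, and its paralogs diverged. HK1, the housekeeping form (chromosome 10 from 71029740 to 71161640, plus strand, GRCh37), had 406 and 469 counts in control and 216 and 226 in RUNX3 KO libraries. Every control library was above every RUNX3 KO library by a wide margin. The level fell from 37.1 ± 3.79 to 18.5 ± 0.352 CPM (SD, n = 2), a log2 fold change of -0.998 (SE 0.0868, edgeR adjusted p = 1.01e-17), and lay between -1.10 and -0.89 over the 13 settings. HK2, the inducible form that many tumours rely on, had 2471 and 2503 counts in control and 2674 and 2709 in RUNX3 KO libraries. This small difference, a log2 fold change of 0.10 (SE 0.0333, edgeR adjusted p = 0.00853), was larger than the spread within groups, but it was not called by DESeq2 (adjusted p = 0.131), nor without control replicate 1 (0.09) or either RUNX3 KO replicate (0.10 in both).

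Phosphofructokinase, the main control point of the pathway, changed in its platelet form. PFKP (chromosome 10 from 3108525 to 3179910, plus strand, GRCh37) had 3237 and 3160 counts in control and 2349 and 2364 in RUNX3 KO libraries. The level fell from 271 ± 4.53 to 198 ± 1.69 CPM, a log2 fold change of -0.45 (SE 0.0328, edgeR adjusted p = 4.15e-22). The muscle form PFKM and the liver form PFKL had log2 fold changes of -0.06 and -0.01 and were not called, although PFKM was called as lower when libraries were scaled by the upper quartile or by size alone, or without control replicate 1. PFKFB3 and PFKFB4 make and break fructose 2,6-bisphosphate, the activator of phosphofructokinase, and both are known HIF targets. PFKFB4 had 65 and 55 counts in control and 27 and 44 in RUNX3 KO libraries, so the knockout libraries were lower but far apart. Its log2 fold change was -0.77 (SE 0.219, edgeR adjusted p = 0.00213), which became -0.47 without RUNX3 KO replicate 1 and -1.15 without RUNX3 KO replicate 2 and was called in neither, nor by DESeq2 or without a filter. PFKFB3, with 1122 and 1097 against 963 and 922 counts, had a log2 fold change of -0.25 that was not called without RUNX3 KO replicate 2 (-0.20).

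Aldolase and enolase each have an abundant form and a scarce form, and the scarce forms were lower. ALDOC, the aldolase known from brain (chromosome 17 from 26900133 to 26903966, minus strand, GRCh37), had 295 and 316 counts in control and 187 and 204 in RUNX3 KO libraries. The groups were well apart, at 25.9 ± 1.27 and 16.4 ± 0.796 CPM, with a log2 fold change of -0.66 (SE 0.0959, edgeR adjusted p = 8.12e-09). ENO2, the neuronal enolase, had 557 and 630 counts in control and 449 and 465 in RUNX3 KO libraries, a log2 fold change of -0.39 (SE 0.0682) that was not called without RUNX3 KO replicate 1 (-0.38) or 2 (-0.40). The abundant forms hardly moved. ALDOA had a log2 fold change of -0.05 that was called with edgeR adjusted p = 0.0451 only narrowly and was lost in 7 of the 13 settings, and ENO1, with 54615 to 55947 counts in each library, had one of -0.02 and was not called.

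The enzymes of the middle of the pathway that have no rival paralog here were flat or higher. GAPDH, which oxidises glyceraldehyde 3-phosphate and served the study's quantitative PCR as reference gene, had 75597 and 75874 counts in control and 93299 and 93962 in RUNX3 KO libraries. The 2 groups were far apart relative to their spread. In log2 terms the change was 0.29 (SE 0.0185, edgeR adjusted p = 1.53e-25), a level 1.23-fold higher. TPI1, which interconverts the triose phosphates, had 7583 and 7950 counts in control and 9998 and 10279 in RUNX3 KO libraries, a log2 fold change of 0.37 (SE 0.0242). GPI, which makes fructose 6-phosphate, had 15704 and 15663 against 18250 and 18647 counts, a log2 fold change of 0.22 (SE 0.0211). PGK1, the first enzyme to yield ATP and a classical HIF target on chromosome X, had 7705 and 7827 counts in control and 7480 and 7700 in RUNX3 KO libraries. Its log2 fold change of -0.05 (SE 0.0244, edgeR adjusted p = 0.109) was not called, but it was with upper-quartile scaling or library size alone. PGAM1 had a log2 fold change of 0.09 that was called (edgeR adjusted p = 0.026) and lost in 7 of the 13 settings. GAPDH, TPI1 and other abundant enzymes have processed pseudogenes. Reads with more than 1 match, 8.95% to 9.07% of all, were set aside in the tables, and how many came from these genes is not known.

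**Figure D2:**
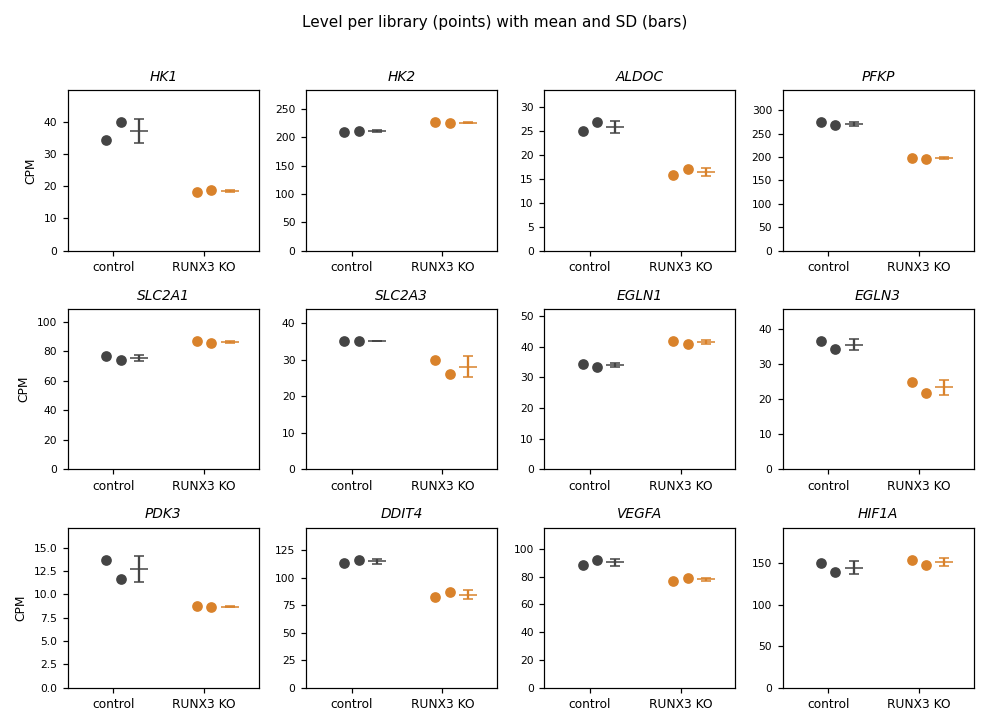
Level of 12 of the genes in each library, in CPM from 0 (points, libraries; bars, mean and SD of the 2 libraries of a group). HK1 falls from 37.1 to 18.5 CPM while HK2 goes from 211 to 226 CPM, SLC2A1 and SLC2A3 as well as EGLN1 and EGLN3 move in opposite directions, and for HIF1A the groups overlap.

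The fate of pyruvate showed small differences in the dehydrogenases and larger ones in the kinases. LDHA, the HIF-inducible lactate dehydrogenase subunit, had 20253 and 20362 counts in control and 19521 and 19495 in RUNX3 KO libraries, without overlap. The log2 fold change was -0.07 (SE 0.0208, edgeR adjusted p = 0.00285), and it was not called without RUNX3 KO replicate 1 (-0.08) or 2 (-0.06). LDHB, the subunit of oxidative tissues, had 19254 and 19728 against 21103 and 21526 counts, a log2 fold change of 0.12 that was not called without either RUNX3 KO replicate (0.12 without replicate 1, 0.11 without replicate 2). SLC16A1, the lactate transporter MCT1, had 2928 and 2857 against 3378 and 3443 counts, a log2 fold change of 0.22 (SE 0.0312), and was called in all 13 settings. SLC16A3, the hypoxia-inducible exporter MCT4, had 6, 5, 4 and 3 counts and was not tested.

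The pyruvate dehydrogenase kinases keep pyruvate out of mitochondria by phosphorylating the dehydrogenase. PDK3 (chromosome X from 24483361 to 24568583, plus strand, GRCh37) had 162 and 138 counts in control and 103 and 104 in RUNX3 KO libraries. The level fell from 12.7 ± 1.43 to 8.69 ± 0.0538 CPM, a log2 fold change of -0.55 (SE 0.133, edgeR adjusted p = 0.0003) that stayed at -0.55 and -0.54 but was not called without RUNX3 KO replicate 1 or 2. PDK1, the kinase best known as a HIF target, had 103 and 102 against 83 and 65 counts. Its log2 fold change of -0.48 (SE 0.159) was not called without RUNX3 KO replicate 2 (-0.30), by DESeq2 or without a filter.

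Of the HIF alpha subunits, only HIF1A had enough reads for the test. HIF1A, whose protein is regulated mainly by degradation, had 1771 and 1638 counts in control and 1818 and 1771 in RUNX3 KO libraries, and the groups overlapped. On the log2 scale the groups differed by 0.06 (SE 0.0397, edgeR adjusted p = 0.202), although without control replicate 1 it was 0.12 and was called. EPAS1, which encodes HIF-2 alpha, had 7 and 6 counts in control and 12 and 10 in RUNX3 KO libraries, without overlap but too few for the test. mRNA counts do not measure HIF protein.

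The hydroxylases that destroy HIF alpha moved apart. EGLN3 (chromosome 14 from 34393433 to 34931980, minus strand, GRCh37), itself a strong HIF target, had 432 and 406 counts in control and 293 and 263 in RUNX3 KO libraries. Its level fell from 35.5 ± 1.55 to 23.4 ± 2.08 CPM, a log2 fold change of -0.60 (SE 0.0825, edgeR adjusted p = 1.03e-09), and it was called in all 13 settings. EGLN1, the main oxygen sensor in most cells, had 406 and 395 counts in control and 495 and 494 in RUNX3 KO libraries. The log2 fold change was 0.29 (SE 0.0721, edgeR adjusted p = 0.000417). Without RUNX3 KO replicate 1 or 2 it was 0.28 and 0.31 and was not called, with adjusted p = 0.0572 and 0.053.

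Of the 9 tested genes listed as hypoxia targets, 3 were lower and 6 were not called, against 24.4% of all tested genes lower and 24.5% higher. Among those whose products reach the cell surface or are secreted, VEGFA, the angiogenic growth factor, had 1045 and 1088 counts in control and 910 and 949 in RUNX3 KO libraries. The groups did not overlap, and the log2 fold change was -0.21 (SE 0.0492, edgeR adjusted p = 0.00017), but it was not called without RUNX3 KO replicate 1 (-0.19) or 2 (-0.23). ADM, which encodes the vasodilator adrenomedullin, and CA12, a carbonic anhydrase of the cell surface, had log2 fold changes of 0.05 and 0.01, with 453 to 517 counts in every library, and were not called. CA9, the carbonic anhydrase used as a marker of hypoxic tumours, had 0, 1, 0 and 1 counts.

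Of the intracellular targets, DDIT4 (REDD1), an inhibitor of mTOR signalling that other stresses also induce, had 1337 and 1375 counts in control and 969 and 1051 in RUNX3 KO libraries. Both knockout libraries lay well below both controls. The log2 fold change was -0.44 (SE 0.0461, edgeR adjusted p = 6.6e-14), a level 1.35-fold lower, and DDIT4 was called in all 13 settings, at -0.48 to -0.39. BNIP3L, a mitophagy receptor, had 331 and 284 against 238 and 260 counts and a log2 fold change of -0.32 (SE 0.0917). That call was lost by DESeq2, without a filter, and without control replicate 1 (-0.20), RUNX3 KO replicate 1 (-0.27) or RUNX3 KO replicate 2 (-0.37). The gene overlaps PNMA2 on the opposite strand, which had 573 and 571 against 401 and 409 counts. Exons of PFKM (SENP1), TPI1 (SPSB2), ANKRD37 (UFSP2), SLC16A3 (CSNK1D) and ENO1 (ENO1-AS1) also overlap counted genes of the opposite strand. Those of PGK1 (ATP7A) and PFKFB4 (UCN2) overlap counted genes of the same strand. No source used here says whether reads were counted by strand. BNIP3, the relative of BNIP3L, had no count in any library, which at a floor of 3 counts allows up to 0.25 CPM of reads assigned to it. EGLN2, a widely expressed hydroxylase of the HIF machinery, also had only 0, 0, 0 and 1 counts, and P4HTM had none. Whether reads of such genes were among those set aside for several matches or overlapping genes was not tested.

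The other intracellular targets were not called. KDM3A, a histone demethylase, had 1240 and 1176 against 1302 and 1311 counts and a log2 fold change of 0.10 (SE 0.0445, edgeR adjusted p = 0.0551), which was called only without control replicate 1 (0.14). For MXI1, a MYC antagonist, the log2 fold change was 0.10 with an SE of 0.104. NDRG1, a stress-responsive gene often used as a hypoxia marker, had 77 and 91 against 95 and 67 counts, so the groups overlapped. ANKRD37 had 14 to 23 counts and an SE of 0.335 on the log2 scale, at which no moderate change could be seen.

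Because paralogs of 1 step are read in the same library, their shares do not depend on scaling. Per kilobase of transcript, HK1 made up 20.4% and 22.6% of hexokinase reads in control and 11.2% and 11.5% in RUNX3 KO libraries, and HK2 the rest. The summed hexokinase level in CPM was nevertheless 0.987 times that of control, because HK2 is the larger part. EGLN1 rose from 37.0% and 37.8% to 51.3% and 54.0% of the EGLN1 and EGLN3 total per kilobase, so that the major form changed from EGLN3 to EGLN1 while the summed level was 0.934 times that of control. PFKP fell from 41.9% and 41.1% to 34.9% and 34.6% of phosphofructokinase reads per kilobase, and here the summed level was 0.88 times that of control. SLC2A1 made up 71.3% and 70.6% of the pair of transporters in control and 76.6% and 78.9% in RUNX3 KO libraries, also per kilobase.

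In the other families the shares moved by fewer percentage points, although the log2 ratio of ALDOC to ALDOA moved by -0.61. LDHA made up 37.95% and 37.51% of the lactate dehydrogenase reads per kilobase in control and 34.97% and 34.49% in RUNX3 KO libraries. ALDOC and ENO2 stayed minor forms, at 1.88 ± 0.098% and 1.24 ± 0.044% of aldolase and 0.824 ± 0.069% and 0.638 ± 0.005% of enolase reads per kilobase in control and RUNX3 KO cells (SD, n = 2). For the kinases PDK1 and PDK3 the shares overlapped between the groups, with PDK1 at 7.84 ± 0.768% and 8.12 ± 1.34%. The small PDK1 share rests on canonical transcripts of 14072 bases for PDK1 and 1741 for PDK3. All annotated exons together have 14845 and 17456 bases. Both kinases fell, to a summed level 0.697 times that of control. Log2 count ratios were compared for 13 pairs of paralogs. Outside the pairs of EPAS1 and SLC16A3, which rest on few counts, the largest differences between group means were an increase of 1.10 for HK2 to HK1 and a decrease of 0.90 for EGLN3 to EGLN1. For 10 of the 12 pairs with a ratio, the groups did not overlap and the exact two-sided permutation test gave p = 0.333 (0.4 after Benjamini-Hochberg adjustment), the smallest that 2 libraries against 2 allow. PFKM to PFKL and PDK3 to PDK1 overlapped, and BNIP3L to BNIP3 has no ratio.

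Some of these genes lie where whole stretches of chromosome shifted. As a measure of this, the log2 fold changes of up to 20 tested neighbours on either side of a gene were reduced to their median. This neighbourhood median was within 0.10 of 0 for 25 of the 35 tested genes, below -0.20 for 4 and above 0.20 for 4. EGLN3 lies where the median was -0.39 and 37 of 40 neighbours were lower, and its own log2 fold change was -0.60. PFKP and PFKFB3, both on the short arm of chromosome 10, lie among genes with medians of -0.28 and -0.25, against -0.45 and -0.25 for the genes themselves. HIF1A, on chromosome 14 like EGLN3, had a neighbourhood median of -0.27, with 35 of 40 neighbours lower, and its own value was 0.06. GAPDH, TPI1 and ENO2 lie close together on the short arm of chromosome 12, where the medians were 0.32, 0.27 and 0.20. GAPDH thus changed about as much as its neighbours, at 0.29, and TPI1 somewhat more, at 0.37, whereas ENO2 went the other way. HK1, ALDOC, DDIT4, PDK3 and PFKFB4 had neighbourhood medians between -0.03 and 0.08, close to 0 beside their own changes. The part of the neighbourhood in these changes was not tested.

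Levels of different genes were compared per kilobase of transcript. Among the 35 tested genes, they spanned in control cells from 4993 CPM per kilobase for GAPDH and 2637 for ENO1 to 0.617 for PDK1. The PDK1 value rests on its long canonical transcript of 14072 bases. LDHB (1267) was above LDHA (768), and these stood far above the lactate transporter SLC16A1 (65.3). Among the early steps, HK2 stood at 37.5 and HK1 at 10.3, and SLC2A1 stood at 22.4 and SLC2A3 at 9.15 CPM per kilobase. In the HIF pathway, HIF1A had 36.6 CPM per kilobase, EGLN3 13.1 and EGLN1 7.83, whereas EPAS1, which was not tested, had 0.107. Neighbouring genes in the order of phosphofructokinase forms, PFKP (103), PFKM (87.0) and PFKL (58.4), kept no fixed order, because in RUNX3 KO cells PFKM (83.7) was above PFKP (75.3). In the EGLN pair the order also changed, to 9.58 for EGLN1 and 8.63 for EGLN3. Both orders depend on the length used. For PFKP and PFKM the canonical transcripts have 2626 and 3090 bases, and all annotated exons together have 7774 and 7246.

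**Figure D3:**
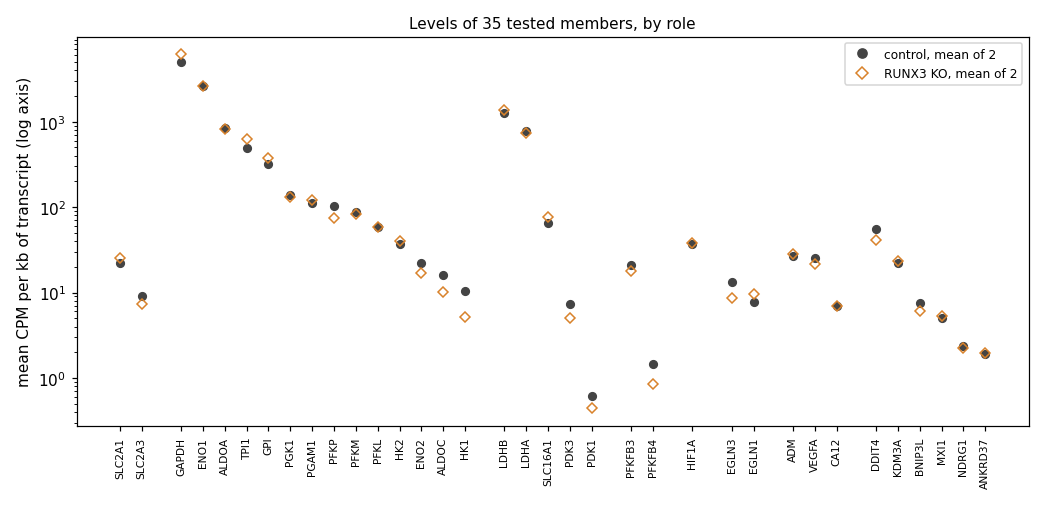
Mean level of the 35 tested genes in CPM per kilobase of transcript on a log axis, by role (filled, control; open, RUNX3 KO; mean of 2 libraries). GAPDH is highest at 4993 in control and PDK1, with a canonical transcript of 14072 bases, lowest at 0.617. The distance between groups is small beside the distance between genes.

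Summed over genes, the transcripts of glycolysis took a slightly larger part of the libraries after the knockout. The 24 glycolytic genes summed to 20162 and 20278 CPM in control and 21957 and 21908 in RUNX3 KO libraries, 8.47% higher. The sum follows its largest members, GAPDH above all. The 15 genes of the hypoxia response summed to 663 and 650 CPM in control and 623 and 619 in RUNX3 KO libraries, a change of -5.38%. Of 6 proliferation markers, 5 were higher and 1 was lower in RUNX3 KO cells, and their sum went from 2499 and 2454 to 2696 and 2622 CPM, 7.36% higher. The part of proliferation in the glycolytic genes was not tested.

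The wider pathway was described with 138 further genes in 7 lists, of which 106 were tested, 28 were higher and 31 lower in RUNX3 KO cells. At 55.7% called, they lay somewhat above the 48.9% of all tested genes. PKM, the pyruvate kinase that ends glycolysis, had 18061 and 18025 counts in control and 19078 and 19282 in RUNX3 KO libraries, without overlap. Its log2 fold change of 0.07 (SE 0.0209, edgeR adjusted p = 0.0017) was not called without RUNX3 KO replicate 1 (0.07) or 2 (0.08) and was below the median of its neighbours, 0.18. In the list of other glycolysis genes, 12 of 24 were tested, 5 were higher and 1 lower (50% called, against 48.9% of all tested genes). PFKFB2, a further kinase for fructose 2,6-bisphosphate, had 211 and 234 against 417 and 397 counts, a log2 fold change of 0.86 (SE 0.0872), the opposite of PFKFB3 and PFKFB4. TIGAR, a phosphatase that lowers the same metabolite, had 490 and 574 against 865 and 959 counts and a log2 fold change of 0.76, in a neighbourhood with a median of 0.37.

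In the pentose phosphate pathway, which branches off at glucose 6-phosphate, all 10 tested of 11 genes were called, 6 as higher and 4 as lower, against 48.9% of all tested genes called, 24.5% as higher and 24.4% as lower. PRPS1, which makes the activated ribose for nucleotides, had 2109 and 2152 counts in control and 3641 and 3558 in RUNX3 KO libraries. This gave a log2 fold change of 0.74 (SE 0.033, edgeR adjusted p = 8.78e-36). Among 26 other genes of glucose and lactate transport and pyruvate entry, 18 were tested, 5 were higher and 3 lower (44.4% called). Of these, named after their values were seen, BSG, the chaperone of lactate transporters, had a log2 fold change of 0.26, and DLAT, DLD and PDHB of the pyruvate dehydrogenase complex had 0.36, 0.27 and 0.22. PDHA1 (-0.03) and PDHX (0.11) of the same complex were not called. The lower genes were PDP1 (-0.43), the phosphatase that reactivates the dehydrogenase, and the transporters SLC2A11 (-0.50, in a neighbourhood with a median of -0.46) and SLC2A5 (-0.33).

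Of the 16 further genes of the HIF machinery, 13 were tested, 3 were higher and 3 lower, which at 46.2% called is near the 48.9% of all tested genes. ARNT, the partner of the alpha subunits, had 742 to 776 counts in every library and a log2 fold change of -0.01. ARNT2, its paralog, had 17 and 20 counts in control and 91 and 106 in RUNX3 KO libraries, far apart. Its level rose from 1.57 ± 0.18 to 8.26 ± 0.783 CPM, 5.25-fold (log2 fold change 2.39, SE 0.223, edgeR adjusted p = 2.67e-16), with a neighbourhood median of 0.26. VHL, which recognises hydroxylated HIF, had 814 and 794 against 670 and 781 counts and a log2 fold change of -0.16 (edgeR adjusted p = 0.0141), which was not called by DESeq2, without a filter, or without control replicate 1 (-0.14), RUNX3 KO replicate 1 (-0.07) or RUNX3 KO replicate 2 (-0.26). HIF1AN, the asparagine hydroxylase that blocks HIF activity, had a log2 fold change of 0.07 and was not called. EP300, a HIF coactivator, and RBX1, of the VHL ligase, which were named after their values were seen, had log2 fold changes of -0.57 and -0.58, and both lie in a neighbourhood with a median of -0.51.

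In the list of 47 other hypoxia targets, 40 were tested, 5 were higher and 15 lower, against 24.5% and 24.4% of all tested genes, and the median log2 fold change was -0.03. PPFIA4 had 121 and 134 counts in control and 51 and 52 in RUNX3 KO libraries, a log2 fold change of -1.32 (SE 0.163, edgeR adjusted p = 3.43e-11). BHLHE40, a transcriptional repressor of the clock and hypoxia responses, had 290 and 267 against 129 and 140 counts and a log2 fold change of -1.06. PAM, which amidates peptide hormones such as adrenomedullin, had 3312 and 3225 against 1990 and 1958 counts and a log2 fold change of -0.74. For LRP1, an endocytic receptor, the log2 fold change was -0.69, and for the cytokine MIF it was -0.67, in a neighbourhood with a median of -0.45. STC1, a secreted glycoprotein that was named after its values were seen because few counts kept it out of the naming rule, had 88 and 86 counts in control and 11 and 4 in RUNX3 KO libraries, a log2 fold change of -3.53 (SE 0.287). Genes induced by HIF in other cells thus differed from -3.53 to 0.69 on the log2 scale in this list. The mesenchymal markers were lower in the same libraries, and their part in these changes was not tested.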

How the data were processed

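RNA-seq counts of 4 libraries of HGC-27 cells were analysed, 2 of control (wt) and 2 of RUNX3KO cells, grouped by their labels. The authors deposited raw read counts per gene symbol, without normalization. The submitters' processing notes name bcl2fastq, HISAT2 2.1.0, HTSeq and hg19, with TRIzol RNA and a stranded mRNA kit, whereas the study's methods name column-purified RNA, STAR, featureCounts and GENCODE. The strand setting is not given in the sources used here. The 5 closing rows, for reads without a gene (25.9% to 28.1% of counts), entered neither library sizes nor tests.

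Counts were compared in R 4.3.3 with edgeR 4.0.16 (12967 genes passed filterByExpr, whose minimum count is 10 and minimum total 15; TMM scaling; glmQLFit and glmQLFTest; Benjamini-Hochberg adjustment over all tested genes, called under 0.05). The biological coefficient of variation was 1.45% (common dispersion 0.000211). Each SE was derived from the log2 fold change and its F statistic. The study's own criteria, a 2-fold change and p of at most 0.05, were counted beside. Levels are CPM on TMM-scaled library sizes, as mean ± SD of 2 libraries, and were compared between genes only per kilobase of the canonical transcript. Intervals, floors (3 counts, 0.25 CPM) and SE cover these libraries only. The steps were tested on simulated counts. They recovered 74.2% of genes with a log2 change of 0.5, 96.8% at 1 and 97.1% at 2, with 8 false calls. Smaller changes were not simulated.

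Gene positions were those of GENCODE on GRCh37, matched for 19607 of 25559 symbols directly and 2119 by synonym, and 12183 tested genes had a position. Promoter sequences are RefSeq's, on GRCh38.p14. Same-numbered libraries did not deviate together (correlation of deviations from group means 0.0257), so the numbers were not taken to pair libraries. With 2 libraries a group, this correlation is the same for both numbers by construction. The genes and lists were chosen with earlier results of these data known. Genes named with values in every library were those of the 39 with a call and a log2 fold change of at least 0.5 in size, 10 more of them whatever their values, and any others described by role. Of the wider lists, 5 were always named, as were the 5 largest changes in each direction with a mean of at least 50 counts, a call and no overlap between groups. The alternatives were RLE, upper-quartile and library-size scaling; no filter or 10 counts in every library; DESeq2 1.42.0, limma-voom (limma 3.58.1) and edgeR's exact test; a replicate block; the study's fold criteria; subtraction of the neighbourhood median; and each library left out in turn, when a lone library is assumed to vary like the other group.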

Additional observations from a re-analysis of the deposited data

How the results depend on the processing

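For the 39 genes, the numbers called higher and lower in RUNX3 KO (9 and 15) stayed within 1.5 times under the scalings, filters and tests. DESeq2 gave 6 and 11. The neighbourhood subtraction kept the calls of the main test and retested nothing, so only signs could change, to 10 and 14. With the replicate block they were 9 and 14. The study's fold criteria gave 0 and 0 (HK1 passed 2-fold in 5 of the 13 other settings), and in the wider lists 1 higher and 3 lower instead of 28 and 31. Leaving out 1 library gave 4 to 10 higher and 5 to 15 lower among the 39 genes and 18 to 27 higher and 18 to 31 lower in the wider lists, with the lowest numbers of the 39 without RUNX3 KO replicate 1 (4 and 8) or 2 (4 and 5). RUNX3 then lay between -0.86 and -0.55 (log2) and was not called without RUNX3 KO replicate 2 (adjusted p = 0.0649); with the replicate block it was -0.70. Subtracting the neighbourhood median reversed PFKFB3 to 0.0056, ALDOA to 0.0098, GAPDH to -0.0246 and PKM to -0.11, by construction, since their neighbours moved as far or farther. With 1 library left out, the difference in the log2 ratio of PFKM to PFKL ranged from -0.1234 (without control replicate 1) to 0.0366 (without control replicate 2), and that of PDK3 to PDK1 from -0.2333 (without RUNX3 KO replicate 2) to 0.1333 (without RUNX3 KO replicate 1), with 0.0587 without control replicate 1; for these the cause was not tested. With 2 libraries a group, genes with few counts (PFKFB4, ANKRD37, EPAS1, SLC16A3, CA9) are limited by depth. Over all tested genes, the median was lowest with upper-quartile scaling, at -0.0228.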

Other observations

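Regulators that respond to glucose itself were in part called. MYC, which drives many glycolytic genes, had 4253 and 3973 counts in control and 4062 and 4195 in RUNX3 KO libraries, with a log2 fold change of -0.01 (edgeR adjusted p = 0.852) and overlapping groups. TXNIP, an inhibitor of glucose uptake that rises with glucose phosphates, had 295 and 335 counts in control and 512 and 565 in RUNX3 KO libraries, a log2 fold change of 0.76 (SE 0.0763, edgeR adjusted p = 8.59e-15). ARRDC4, its relative under the same control, had 441 and 431 against 370 and 379 counts and a log2 fold change of -0.23, so this pair moved oppositely. The neighbourhood median was -0.14 for TXNIP and 0.66 for ARRDC4, whose value is -0.89 after subtraction. MAX, the partner of MYC, was lower (-0.39) and MLX, the partner of the glucose sensors, was higher (0.28). Of the 9 genes of this list 8 were tested, 2 were higher and 2 lower (50% called, against 48.9% of all tested genes). Beyond TXNIP and MYC, these genes were named after their values were seen.

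All 5 genes of a small list on iron and redox were called, against 48.9% of all tested genes. FTH1 and FTL, the ferritin chains that store iron, were lower, with 12274 and 12274 against 10297 and 10383 counts for FTH1 (log2 fold change -0.26) and 6076 and 5878 against 4685 and 4699 for FTL (-0.36). SLC7A11, the cystine importer, was lower (-0.13), and the reductases NQO1 (0.20) and TXNRD1 (0.23) were higher. All 5 are known NRF2 targets, so these moved in both directions. Groups did not overlap for any of the 5, as for 72.7% of all tested genes.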
